A study of Mus musculus with 23 samples.

Results

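The T cell receptor (TCR) repertoire of a mouse melanoma model was compared between treatment with both drugs of the study and no treatment, at the time labelled D4. The comparison covered 6 of the series' 23 libraries: 3 of the combination, trametinib with BGB-283, and 3 of the control, labelled V, with no treatment. They were chosen by their labelled treatment and time, and every listed alpha (TRA) and beta (TRB) chain with a resolved sequence was used. Over all 23 libraries these were 64436 of 64710 entries, of which 35389 were TRB and 29047 TRA. The 6 libraries compared listed 13573 of the TRB and 11755 of the TRA entries. All groups share the same syngeneic model, grown from the line NIL, which carries Nras Q61R and was exposed to ultraviolet light to give it a mutational burden like that of human melanoma. Trametinib inhibits the kinase MEK and BGB-283 inhibits RAF kinases. The study asks how such combinations affect resistance to MEK inhibition and T cell immunity against the tumour. The labels give no host strain or age, do not say from which event D4 is counted, and do not say whether each library is 1 tumour. P-values therefore measure the spread between these libraries only. The labels name a melanoma line as the tissue, and the table of TCR transcripts holds no tumour gene with which to check it.

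A TCR joins an alpha and a beta chain, each built from a V and a J segment (with a D segment in beta) joined at random in the developing T cell. The join forms the CDR3, the loop that meets the peptide, so that cells sharing a CDR3 usually descend from 1 precursor or were made by a frequent rearrangement. A tumour that holds a few large T cell clones gives a steep list of abundances, and one entered by many different T cells gives a long list of rare ones. A clonotype here is a V segment, a J segment and a CDR3 amino acid sequence. V names were taken as listed. Some TRAV names join several gene copies that were not told apart, so 1 rearrangement may count as more than 1 TRA clonotype.

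The combination libraries held more counts than the control libraries. Total counts were 718925 ± 72672 (SD, n = 3) in the combination and 242195 ± 166971 in the control. TRB counts were 235028, 274191 and 285111 in combination replicates 1 to 3, and 34553, 94814 and 186652 in control replicates 1 to 3. TRA counts were 421299, 524431 and 416714 against 45796, 137563 and 227206. In bulk RNA, more T cells and more receptor RNA per cell cannot be told apart. The lowest count listed is 3, which is 0.00105 to 0.00128% of TRB counts in combination libraries and 0.00161 to 0.00868% in control libraries. The make-up of low counts also differed. Of all values from 3 to 20, those equal to 20 made up 3.54% ± 0.990 in the combination and 34.6% ± 6.63 in the control. TRB clonotypes under 20 counts made up 60.3% ± 8.52 of those listed in the combination and 22.9% ± 4.63 in the control. With counts under 20 removed, the log2 difference in clonotypes detected was 2.39 for TRB and 2.49 for TRA. With all counts it was 3.37 and 3.10. Beyond such runs, the part of low counts in the results below was not tested. Clonotype numbers are also given at equal counts and at equal estimated molecules, a molecule being up to 20 counts. Any value under 20 stands as 1 molecule, so thinning to equal molecules does not remove the difference in low counts.

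Many more different T cell receptors were listed in the combination libraries, in both chains. TRB clonotypes numbered 3584, 5172 and 3718 in the combination and 214, 416 and 696 in the control, so the lowest combination library held several times as many as the highest control library. The difference was 3.37 on the log2 scale, or 10.4-fold. Each library was then thinned to the 34553 TRB counts of the shallowest. This left 3144 ± 658 clonotypes in the combination and 423 ± 217 in the control, 8.07-fold apart. Thinning to 1816 estimated molecules left 697, 959 and 803 in the combination against 214, 283 and 313 in the control, which is 3.05-fold. TRA gave the same order. Its clonotypes numbered 3317, 4424 and 3280 against 265, 421 and 684, which is 8.58-fold. At 45796 TRA counts the fold was 6.56, with 2709 ± 444 against 437 ± 189 clonotypes, and at 2399 estimated molecules it was 2.59, with 748 ± 97.9 against 288 ± 31.6. In all 6 of these measures the groups did not overlap, and the exact two-sided permutation test gave p = 0.1, the smallest that 3 against 3 libraries allow (adjusted p = 0.2 over 22 measures).

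**Figure D1:**
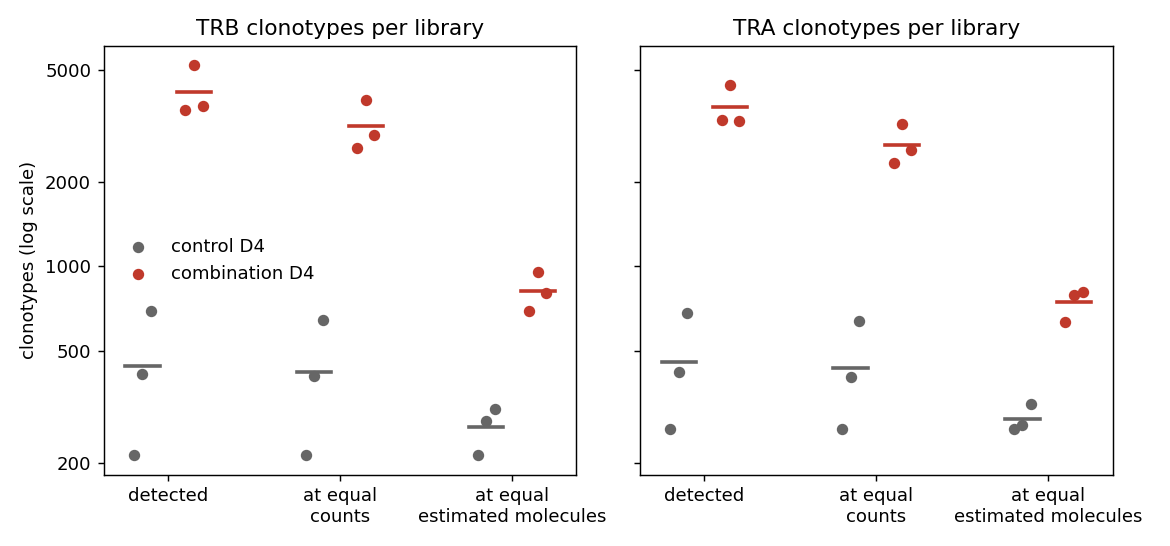
Clonotypes per library (log scale) for TRB (left) and TRA (right): as detected, after thinning to equal counts and after thinning to equal estimated molecules. Points are the 3 libraries of each group and bars their means. The 3 combination points lie above the 3 control points in every column, and the gap is smallest at equal estimated molecules, 820 against 270 TRB clonotypes.

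Across all 22 measures, 11 for each chain, 11 had groups that did not overlap and reached p = 0.1 in the exact permutation test. None passed 0.05 after Benjamini-Hochberg adjustment, and at this number of libraries none could.

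The extra clonotypes were small ones. At equal counts, clonotypes under 0.01% of TRB counts numbered 1863 ± 372 in the combination and 77.1 ± 88.4 in the control, and those of 0.01 to 0.1% numbered 1216 ± 343 against 237 ± 151. Equal counts do not equalise the smaller class: control replicate 1, which sets the depth, can enter it only at its lowest listable count of 3, or 0.00868%, while a thinned library can also enter it at 1 or 2 counts. These sizes are shares of the chain's counts, so added counts in small clonotypes lower the share of the larger ones. Above 0.1% the TRB order turned. Clonotypes of 0.1 to 1% were fewer in the combination, 51.7 ± 3.60 against 91.9 ± 15.8, with no overlap (exact permutation p = 0.1). The numbers of clonotypes of 1% or more overlapped, 14.4 ± 3.77 against 17.3 ± 4.11 (exact permutation p = 0.6). TRA numbers of 0.1 to 1% overlapped too, 60.6 ± 6.44 against 83.4 ± 22.6 (exact permutation p = 0.3). Before thinning, the TRB clonotype at rank 10 had on average 3553 counts in the combination and 1934 in the control. At rank 100 it had 147 against 115, and both ranks overlapped. In TRA these were 10275 against 2478 and 289 against 133, both without overlap. Library totals were also higher in the combination. At equal estimated molecules, TRB clonotypes seen as 1 molecule numbered 694 ± 118 in the combination and 130 ± 52.1 in the control. Those of 2 to 5 molecules overlapped between groups, 94.1 ± 25.6 against 92.3 ± 22.1 (exact permutation p = 0.9). Those of more than 20 molecules were fewer in the combination, 11 ± 2.08 against 15.2 ± 2.46, without overlap. In TRA, 1-molecule clonotypes numbered 589 ± 77.6 against 136 ± 37.0, and the numbers of 2 to 5, 6 to 20 and over 20 molecules overlapped between groups.

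TRB clonotypes of 1% or more held 57.2, 40.4 and 44.9% of the counts in combination replicates 1 to 3 and 63.1, 65.3 and 64.9% in the control. TRB clonotypes of 0.1 to 1% held 16.4, 15.4 and 16.3% in the combination, nearly the same in each library, against 33.1, 24.1 and 21%. Those under 0.1%, taken from all counts, held 26.6, 44.4 and 38.6% in the combination and 3.81, 11 and 14.4% in the control, a difference of 26.8 percentage points. Clonotypes of 0.1% or more thus held most TRB counts in both groups, 73.4, 55.6 and 61.4% in the combination and 96.2, 89.0 and 85.6% in the control. In TRA the share under 0.1% was 19.6, 28.1 and 31.9% against 5.02, 9.13 and 12.8%, a difference of 17.6 points. For both chains the groups did not overlap (exact permutation p = 0.1, adjusted p = 0.2). TRA clonotypes of 1% or more held 60.5, 52.7 and 48.6% against 54.5, 70.4 and 66.2%, which overlap because control replicate 1 was low.

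**Figure D2:**
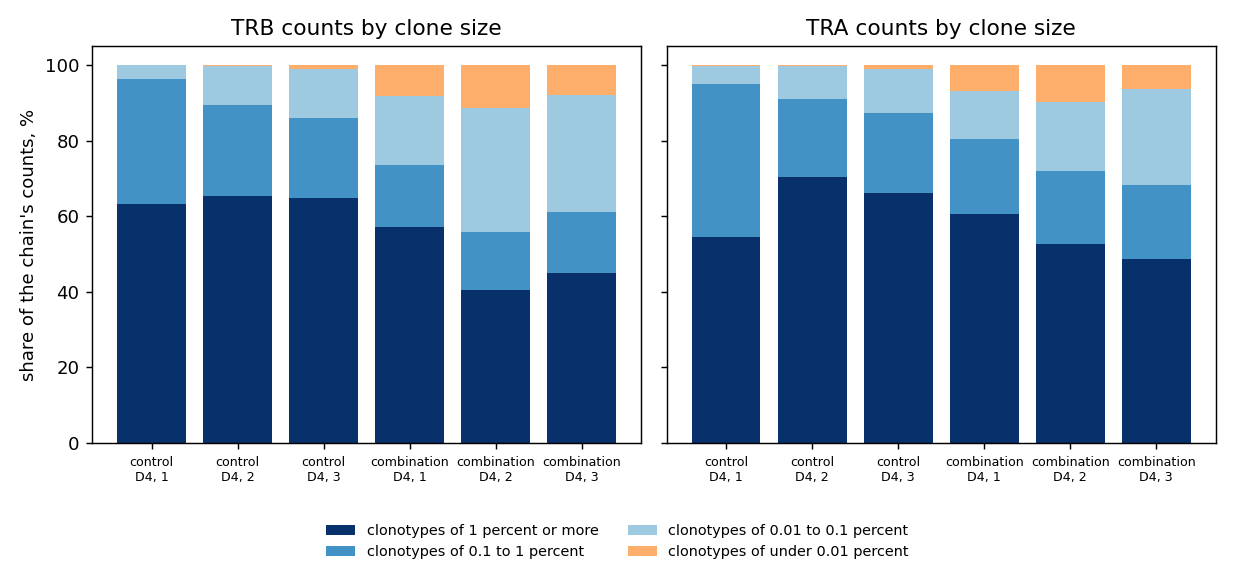
Share of TRB (left) and TRA (right) counts held by clonotypes of 4 sizes in each of the 6 libraries, after thinning to equal counts; each bar sums to the whole chain. The lower classes are the large clonotypes: TRB clonotypes of 1% or more fill 63.1 to 65.3% of the control bars and 40.4 to 57.2% of the combination bars.

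In the ranked list of TRB abundances the groups overlapped in the share of the largest clonotype and stood apart at ranks 10 and 100. The largest TRB clonotype held 11.1% ± 3.43 of counts in the combination and 22% ± 10.7 in the control (exact permutation p = 0.2). The 10 largest held 49.6, 31.0 and 44.9% against 46.2, 57.7 and 59.0%, where combination replicate 1 lies inside the control range (exact permutation p = 0.2, adjusted p = 0.338). In estimated molecules they held 42.0, 25.6 and 39.4% against 44.3, 55.8 and 57.1%, without overlap, a difference of -16.7 points (exact permutation p = 0.1, unadjusted). The difference by counts, -12.5 points, was -7.07 points without combination replicate 2. The clonotype at rank 10 held 1.496, 1.52 and 1.04% of counts in the combination and 2.03, 1.69 and 1.87% in the control, also without overlap. The 100 largest held 65.9% ± 9.19 against 89.2% ± 3.47, with no overlap. In TRA the clonotype at rank 10 went the other way with overlap, 2.28% ± 0.692 against 1.84% ± 0.125 (exact permutation p = 0.4, unadjusted). The same 10 largest in TRA held 51.4, 42.5 and 39.8% against 39.5, 61.2 and 60.4% (exact permutation p = 0.4), and the 100 largest 75.2% ± 6.01 against 90.4% ± 1.08. It took 11, 37 and 17 TRB clonotypes to reach 50% of the counts in the combination and 13, 7 and 7 in the control. To reach 90% it took 1355 ± 554 against 117 ± 31.1, and to reach 99% it took 3391 ± 809 against 330 ± 163. The clonotype at rank 100 held 0.0553% ± 0.00478 in the combination and 0.129% ± 0.0420 in the control. Beyond that rank the control curves ended at ranks 214, 416 and 696, and the combination curves ran on as a long shelf of rare clonotypes to ranks 3584, 5172 and 3718.

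**Figure D3:**
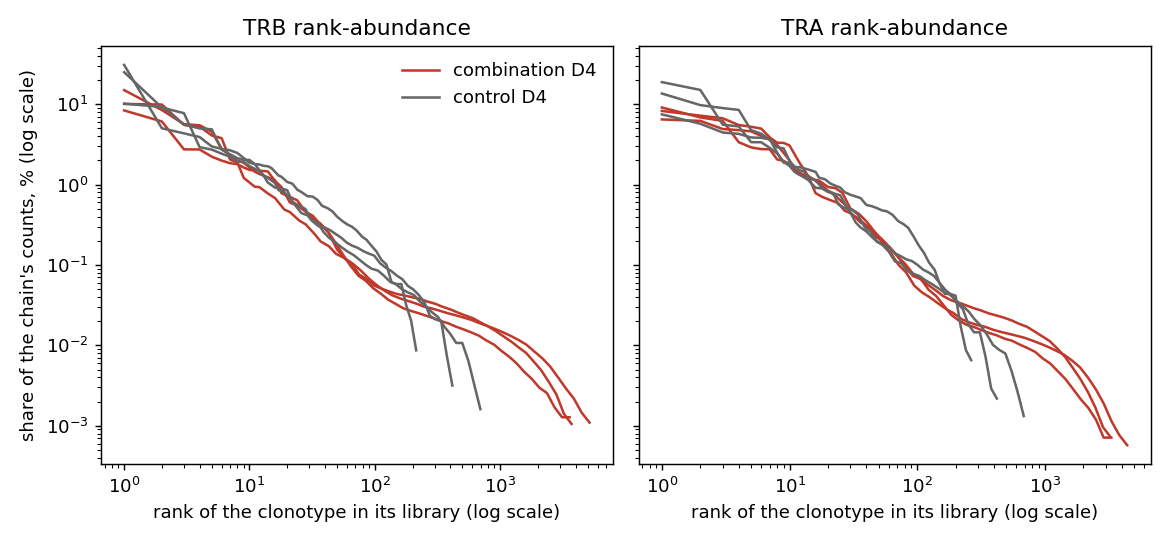
Share of the chain's counts (log scale) against the rank of the clonotype in its library (log scale), TRB left and TRA right, 1 line per library. Red combination lines and grey control lines overlap at rank 1; at rank 100 the TRB means are 0.0553% and 0.129%, and the combination lines then extend to a rank several times higher.

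Clonality, which is 0 when all clonotypes are equal and 1 when a single one holds everything, did not separate the groups. TRB clonality at equal counts was 0.315 ± 0.0594 in the combination and 0.324 ± 0.0934 in the control, a difference of -0.00943 (exact permutation p = 0.9). TRA clonality was 0.348 ± 0.0398 against 0.317 ± 0.103 (exact permutation p = 0.9). The TRB direction turned, to 0.00316, when counts under 20 were removed. The TRA direction turned, to -0.0401, in estimated molecules. The index divides by the log of the clonotype number, which itself differed between the groups.

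The largest clonotypes differed from library to library. The largest TRB clonotypes of control replicates 1 to 3 were a TRBV15 TRBJ1-5 chain with a CDR3 of 13 residues at 10.2% of TRB counts, a TRBV16 TRBJ2-5 chain of 13 residues at 25.0% and a TRBV12-1 TRBJ2-7 chain of 12 residues at 30.8%. Those of combination replicates 1 to 3 were a TRBV16 TRBJ2-7 chain of 12 residues at 15.0%, a TRBV12-1 TRBJ2-7 chain of 12 residues at 8.37% and a TRBV17 TRBJ2-4 chain of 14 residues at 10.1%. The largest of control replicate 2 was also found in control replicate 3, at 1.87%, and in combination replicate 2, at 0.00656%. The largest of combination replicate 2 was found in control replicate 3 at 0.00268%, and the other 4 were listed at 0 in the remaining libraries of the comparison. The largest of control replicate 3 and of combination replicate 2 use the same V and J segments and have CDR3s of the same length. Counted from the first residue of the CDR3, the change from the former to the latter is P5L. In all, 12328 TRB clonotypes were listed in any combination library and 1310 in any control library, and 65 were in both, which is 4.96% of the control's and 0.527% of the combination's. In TRA, 138 were in both, 10.2% of the control's 1352 and 1.31% of the combination's 10541.

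Few clonotypes recurred within a group. Of TRB clonotypes, 1.14% of the combination's were in at least 2 combination libraries and 1.15% of the control's in at least 2 control libraries. Of TRA clonotypes the shares were 4.11% and 1.26%. Clonotypes listed in all 3 combination libraries numbered 5 in TRB and 47 in TRA, and 42 of those 47 were also listed in at least 1 of the 17 libraries outside the comparison. The J segment most common among the 47 was TRAJ22, in 16. It also held a mean of 7.45% of all TRA clonotypes in the combination libraries. In each chain 1 clonotype was present in all 6 libraries, TRBV13-2 TRBJ1-1 in TRB and TRAV12N-3 TRAJ11 in TRA, both with a CDR3 of 13 residues.

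The shared beta clonotype held 1.99, 0.119 and 0.207% of TRB counts in the combination and 1.08, 0.117 and 0.181% in the control, and was listed in 15 of the 23 libraries. The shared alpha clonotype was among the larger clones everywhere, with 7.21, 3.12 and 0.704% of TRA counts in the combination and 0.760, 2.82 and 5.30% in the control. It was listed in 14 of the 23 libraries. Neither stood apart between the groups.

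More V-J pairs were in use in the combination, in both chains. Of 278 TRBV-TRBJ pairs in the series, combination libraries listed 246, 250 and 245 and control libraries 104, 135 and 160. At equal counts, 242 ± 4.23 against 132 ± 26.6 pairs were in use, 1.86-fold apart without overlap (exact permutation p = 0.1, adjusted p = 0.2). Equal counts still left 3144 against 423 TRB clonotypes, and the part of clonotype number in the pair numbers was not tested. No pair was listed in a control library and absent from every combination library, and 36 pairs were listed in all 3 combination libraries and in no control library. Of 3237 TRAV-TRAJ pairs, combination libraries listed 1318, 1539 and 1355 and control libraries 181, 271 and 407. At equal counts 1183 ± 102 against 280 ± 106 were in use, 4.42-fold apart. Joint TRAV names count here as separate pairs, and their part in this difference was not tested. Here 358 pairs were in all 3 combination libraries and no control library, and 111 were listed in a control library alone. A TRB pair in use held on average 14.6, 20.7 and 15.2 clonotypes in the combination and 2.06, 3.08 and 4.35 in the control.

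Segment usage by counts gave no call. The edgeR quasi-likelihood test, fitted over all 23 libraries, called 0 of 24 TRBV, 0 of 12 TRBJ, 0 of 264 TRBV-TRBJ pairs, 0 of 118 TRAV, 0 of 41 TRAJ and 0 of 1941 TRAV-TRAJ pairs, so the share called was 0% in each. Unadjusted p was under 0.05 for 2, 1, 44, 13, 10 and 163 of them. DESeq2 called 1, 0, 38, 15, 7 and 250, which is 4.35, 0, 16, 13.6, 17.9 and 18.5% of those it tested. The edgeR fit of the 6 libraries alone called 194 TRAV-TRAJ pairs (33%) and 1 TRBV segment, TRBV24 (4.35%), which was listed at 0 in the control. A pair could pass the filter through 1 group alone. All 3 combination libraries listed 669 TRAV-TRAJ pairs, and all 3 control libraries listed 22. These calls of pairs, and those of DESeq2, are therefore not read as differences in usage. In estimated molecules, edgeR over all 23 libraries called TRAJ38 (2.44% of TRAJ) and TRAV16 (1.22% of TRAV). The biological coefficient of variation was 0.935 for TRBV, 1.32 for TRAV and 0.931 for TRAJ, a wide spread between libraries. Shares of the 2 groups did not overlap for 8.33% of TRBV segments (combination above) and 0% (below), for 16.7% and 0% of TRBJ, for 13.3% and 4.9% of TRAV and for 9.76% and 4.88% of TRAJ. For pairs, the combination was above without overlap in 28.1% of TRBV-TRBJ pairs and below in 0.36%, the latter being 1 pair.

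Among V beta segments, TRBV16 was the most used, with 22.1, 7.50 and 12.2% of TRB counts in the combination and 8.97, 35.9 and 19.9% in the control. Those ranges overlap widely, and 1 clonotype alone held 25.0% of the counts in control replicate 2. TRBV26, the segment with the smallest p among those higher in the combination and listed in all 6 libraries, held 1.18, 1.72 and 0.879% against 0.663, 0.0717 and 0.185%. All 3 combination values lie above the control's, and the log2 fold was 2.04 (SE 0.837, edgeR adjusted p = 0.37). TRBV24 was listed at 0.0319, 0.0201 and 0.0231% in the combination and at 0 in the control. That is 5.58-fold above a floor of 3 counts per control library. The floor does not allow for molecules of up to 20 counts missed in sampling, so it sets no lower bound on the fold. TRBV30 reached 5.82% in combination replicate 3 alone, against 0.262 and 0.281% in the other 2. TRBV4, TRBV31 and TRBV15 were the 3 with the smallest p among segments lower in the combination, and all 3 overlapped between groups.

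Among J beta segments, TRBJ2-2 held 7.55, 2.70 and 2.16% in the combination and 1.02, 1.64 and 0.949% in the control, a log2 fold of 1.78 (SE 0.778, edgeR adjusted p = 0.297). TRBJ1-3 was also above in all 3, at 1.53, 2.87 and 3.91% against 1.02, 1.25 and 0.986%. TRBJ1-5, with the smallest p among those lower in the combination, overlapped, at 0.634, 1.24 and 1.69% against 10.9, 0.447 and 0.958%. The 2 gene clusters, TRBJ1 and TRBJ2, overlapped between groups, with TRBJ1 at 21.7% of counts in the combination and 27.1% in the control.

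The V-J pairs with the smallest p show how a single clone enters these shares. TRBV17 TRBJ2-4 held 0.145, 0.291 and 10.4% in the combination and 0, 0 and 0.0600% in the control (log2 fold 7.45, SE 2.16, edgeR adjusted p = 0.147). The largest clonotype of combination replicate 3 made up 97.1% of the pair there. TRBV16 TRBJ2-7 held 15.7, 1.22 and 1.63% against 0.460, 0.655 and 0.344%. It was also the pair with the most clonotypes in the combination, 114, 132 and 117. TRBV12-2 TRBJ1-6 was at 0.138, 0.209 and 0.149% in the combination and listed at 0 in the control, 36.9-fold above the floor of 3 counts. TRBV15 TRBJ1-4 was 17.7-fold above the same floor. In the other direction, TRBV3 TRBJ1-4 held 0.187, 0.192 and 0.277% in the combination and 5.16, 9.62 and 2.93% in the control (log2 fold -4.75, SE 1.46, edgeR adjusted p = 0.147). This was the only pair below the control without overlap, and its largest clonotype made up 96.9, 94.5 and 51.0% of it in control replicates 1 to 3.

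Counting each clonotype once removes the weight of counts, and some segments were then called. Clone size can still enter through small clonotypes that lie near large ones, as given below. The edgeR test on numbers of clonotypes called 3 of 20 TRBV segments (15%), 1 of 12 TRBJ (8.33%), 2 of 80 TRBV-TRBJ pairs (2.5%), 1 of 56 TRAV (1.79%) and none of 40 TRAJ. TRBV17 held 6.39, 7.46 and 6.11% of TRB clonotypes in the combination and 3.74, 4.09 and 3.59% in the control, a log2 fold of 0.82 (edgeR adjusted p = 0.00837). TRBV26 held 2.20, 2.17 and 1.48% against 0.935, 0.240 and 0.287% (2.34, edgeR adjusted p = 0.00404). The control shares of TRBV26 rest on only 2, 1 and 2 clonotypes, also with clonotypes under 20 counts left out. TRBV16 was lower, with 12.7, 10.9 and 13.7% against 15.0, 17.1 and 18.2% (-0.46, edgeR adjusted p = 0.0206). TRBJ2-5 was lower, with 11.3, 10.03 and 12.1% against 12.1, 16.3 and 15.4% (-0.45, edgeR adjusted p = 0.0104). For each of these 4 segments the groups did not overlap, and they did not overlap either when clonotypes under 20 counts were left out. For TRBJ2-5 with all clonotypes the gap was very narrow, 12.13% in combination replicate 3 against 12.15% in control replicate 1.

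The pair TRBV3 TRBJ1-4 was lower by clonotype as well, at 0.558, 0.503 and 0.592% against 2.80, 2.88 and 1.29% (log2 fold -1.95, edgeR adjusted p = 0.00328). TRBV16 TRBJ2-5 held 1.43% ± 0.389 against 3.54% ± 2.19 (-1.40, edgeR adjusted p = 0.0255), and its groups overlapped. Control libraries held proportionally more small clonotypes lying 1 residue from a large clonotype of the same V and J in the same library. They made up 23.3, 18.5 and 13.4% of clonotypes under 0.1% in the control and 4.43, 3.16 and 3.67% in the combination. These neighbours were left out, with small clonotypes that carry a large clonotype's CDR3 and J with another V. The edgeR test was not run again without them, so the adjusted p-values given include them. TRBV16 TRBJ2-5 then held 1.36% ± 0.177 against 1.94% ± 0.789, with overlap. TRBV3 TRBJ1-4 then held 0.572% ± 0.0486 against 1.06% ± 0.236, still apart, the control values resting on only 2, 3 and 8 clonotypes. TRBV16 then held 12.4% ± 1.33 against 15.3% ± 0.994 in the control. The TRB libraries then held 3426, 5010 and 3583 clonotypes in the combination and 193, 360 and 614 in the control.

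In the alpha chain, TRAV7D-2 was the most used V segment in the combination, with 11.3, 22 and 12% of TRA counts against 10.3, 19.9 and 6.37% in the control. TRAV16 held 3.73, 1.79 and 0.266% against 0, 0.0240 and 0.0726%, a log2 fold of 5.88 (SE 1.67, edgeR adjusted p = 0.194). TRAV14-3 was at 9.05, 1.32 and 1.08% against 0.131, 0.520 and 0.247%. Most of the first value was the largest TRA clonotype of combination replicate 1, a TRAV14-3 TRAJ27 chain with a CDR3 of 13 residues, which held 8.25%. TRAV7-5V7D-5, a joint name for copies that were not told apart, was at 0.0204, 0.0339 and 0.0470% in the combination and 2.02, 0.361 and 0.0555% in the control. By clonotype, TRAV21/DV12 was called, at 1.22% ± 0.221 of TRA clonotypes against 0.126% ± 0.218 (log2 fold 3.88, edgeR adjusted p = 0.0261). Among the controls it was listed in replicate 1 alone, from 1 clonotype. Of the TRAV-TRAJ pairs, 11.9% were above the control without overlap and 0.0927% below. TRAV8-1V8D-1 TRAJ49, TRAV14-3 TRAJ27 and TRAV9D-1 TRAJ40 had the smallest p, each listed at 0 in the control and each carried by 1 large clone of 1 combination library.

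The J alpha segments came nearest to a call. TRAJ38 held 3.48, 4.28 and 1.35% of TRA counts in the combination and 0, 0.109 and 0.295% in the control (log2 fold 4.49, SE 1.36, edgeR adjusted p = 0.0588). The largest clonotype of each library made up 94.8, 94.3 and 61.2% of it in combination replicates 1 to 3, joined to TRAV16 in replicate 1 and to TRAV21/DV12 in replicate 2. TRAJ18, which the invariant chain of natural killer T cells uses, held 0.636, 2.97 and 1.82% against 0.0437, 0.252 and 0.237% (log2 fold 3.34, SE 1.02, edgeR adjusted p = 0.0588). Chains that join it to TRAV11 made up 0.317, 0.425 and 1.13 of those percentage points in the combination. TRAJ21 was above in all 3, at 9.77, 5.85 and 10.5% against 3.25, 1.85 and 3.60%. TRAJ4 and TRAJ28 were below in all 3, TRAJ4 with 0.269, 0.244 and 0.355% against 3.25, 1.27 and 0.477%. The other TRAJ with an unadjusted edgeR p under 0.05 overlapped between groups. Of these, TRAJ58 held 0.170, 1.03 and 4.74% against 0, 0.297 and 0.0801%. TRAJ33 held 0.596, 0.728 and 1.70% against 0.461, 0.563 and 17.4%.

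J alpha segments lie in a row, and the developing T cell uses the 5′ end, nearest to the V segments, first. The 5′ part, TRAJ61 to TRAJ40, held 11.9, 13.7 and 30.1% of TRA counts in the combination and 7.80, 5.64 and 7.77% in the control. By clonotype it held 20.3% ± 1.44 against 13.5% ± 2.74, and the groups did not overlap by either weight. Of its 12 members 9 were higher in the combination, with a median log2 fold of 1.82, beside 23 of 41 and a median of 0.52 over all TRAJ, and 0 of the 12 passed the edgeR test. The 3′ part, TRAJ20 to TRAJ1, held 24.5% against 31.1% of clonotypes, without overlap, while its shares of counts overlapped. Without small clonotypes near large ones, it held 24.6% against 28.5% of clonotypes and the groups overlapped. The middle held overlapping shares. These lists were described and not tested.

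Receptors of 2 invariant T cell types were looked for. The invariant natural killer T (iNKT) alpha chain, TRAV11 joined to TRAJ18, sees lipids on CD1d. It was at 0.317, 0.425 and 1.13% of TRA counts in the combination, from 9 clonotypes in each library. In the control it was listed at 0, 0.209 and 0%, from 1 clonotype. As a share of TRA clonotypes it was 0.271, 0.203 and 0.274% against 0, 0.238 and 0%, with overlap. Its most listed CDR3, of 15 residues, was found under 3 names of TRAV11, each counted as a separate clonotype. With the name TRAV11N it held 0.299, 0.395 and 0.974% in the combination and 0, 0.209 and 0% in the control. Mucosal-associated invariant T (MAIT) cells, which see bacterial vitamin metabolites, use TRAV1 joined to TRAJ33. That chain had 0, 18 and 116 counts in the combination, the last from 2 clonotypes, and was listed at 0 in the control. The beta segments that pair most often with the iNKT chain (TRBV13-1, TRBV13-2, TRBV13-3, TRBV29 and TRBV1) held 25.0% ± 4.52 of TRB counts against 13.9% ± 1.69, without overlap. Those segments also serve conventional T cells. In combination replicate 3 they held 30.1%, of which 1 TRBV29 TRBJ2-3 clonotype held 9.91 points. By clonotype they held 30.3% against 24.8% without overlap, and 30.5% against 26.8% with overlap once small clonotypes near large ones were left out. The TRBV13 family alone, known as Vbeta8, held 12.4% ± 1.15 against 8.57% ± 1.27, and 12.8% against 9.56% of clonotypes, with no overlap by either weight. Of the 5 partner segments 4 were higher, with a median log2 fold of 0.78 beside 0.62 over all 24 TRBV, and 0 passed the edgeR test. The segments deleted by mouse superantigens in some strains (TRBV12-1, TRBV12-2, TRBV15, TRBV16 and TRBV26) held 33.2% against 51.2% of counts, with overlap. By clonotype they held 30.5% against 36.3% without overlap, and 30.5% against 32.9% with overlap once small clonotypes near large ones were left out. Of those 5 segments 1 was higher by counts, beside 14 of 24 over all TRBV.

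Mean CDR3 length by counts overlapped between the groups. Mean TRB length was 13.64 ± 0.143 residues in the combination and 13.55 ± 0.256 in the control (exact permutation p = 0.7), and mean TRA length was 13.69 against 13.56 (exact permutation p = 0.5). With each clonotype counted once, TRB length was 13.98, 13.97 and 13.99 residues in the combination and 13.77, 13.95 and 13.82 in the control. The combination values are closely grouped and lie just above the control's, a difference of 0.132 residues (exact permutation p = 0.1, adjusted p = 0.2). TRA length by clonotype was 13.59 against 13.57 (exact permutation p = 0.8).

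Single lengths differed more than the means. TRB CDR3s of 13 residues made up 20.6% ± 0.311 of clonotypes in the combination and 24.9% ± 1.23 in the control, without overlap. Those of 15 residues made up 19.99% ± 2.13 of counts against 13.5% ± 1.99, and those of 16 residues 3.85% ± 1.03 against 7.94% ± 2.50, both without overlap. TRA CDR3s of 14 residues held 35.9% ± 4.33 of counts against 25.1% ± 7.57, and TRA CDR3s of 15 residues 14.7% ± 0.393 of clonotypes against 17.8% ± 0.909, both without overlap. Each of these gave p = 0.1 in the exact permutation test, unadjusted. They were picked from the commoner lengths after their values were seen. Of the 13 TRB lengths listed in these libraries, 5 were apart by counts (4 above in the combination, 1 below) and 3 by clonotype (2 above, 1 below). Of the 13 TRA lengths, 4 were apart by counts, all above, and 4 by clonotype (3 above, 1 below). The rarer lengths among them were all above in the combination, such as 17 residues in TRB, with 1.43% of counts against 0.544%. TRB CDR3s of 12 residues or fewer held 40.6% of counts in control replicate 3, which holds the TRBV12-1 clonotype of 12 residues at 30.8%, and 5.58% in control replicate 2.

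**Figure D4:**
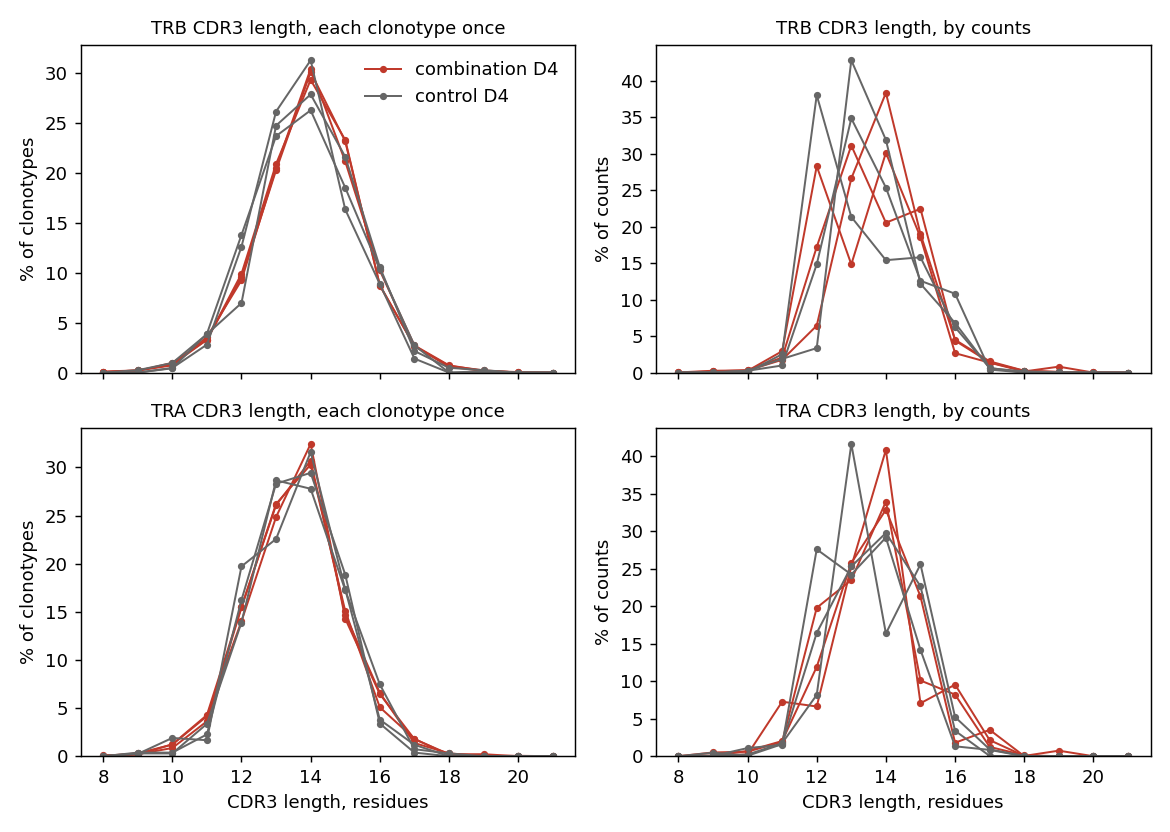
Share of clonotypes (left) and of counts (right) at each CDR3 length in residues, TRB above and TRA below, 1 line per library, combination in red and control in grey. With each clonotype counted once the 3 TRB combination lines nearly coincide, at 20.6% for 13 residues against 24.9% in the control; by counts the lines of both groups scatter.

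The difference between combination and control was also set against the same difference at D11, with 3 combination and 2 control libraries there. By exact permutation within day, 2 of the 22 measures had an unadjusted p under 0.05 and 0 passed after adjustment. One of the 2 was the mean TRB CDR3 length by clonotype, with 0.132 residues at D4 and -0.215 at D11 (exact permutation p = 0.01, adjusted p = 0.22). For the other, the TRB number of clonotypes holding 50% of the counts differed between days by 2.28 on the log2 scale (exact permutation p = 0.045, adjusted p = 0.367).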

How the data were processed

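TCR transcripts were measured in 23 libraries. Per the labels' protocols, the AllPrep and mirVana kits served for RNA extraction and the QIAseq Immune Repertoire kit for the libraries. The deposited counts, not scaled between samples, are listed by the authors per chain, V, J and CDR3 amino acid sequence. The build in the submitters' processing notes is GRCh38, which is human although the samples are mouse, and no coordinates were used. The sources used here do not give the clonotype caller and its filters. Entries with an unresolved residue (274) were left out. The lowest value above 0 is 3, and values pile up at 20. From this the values were read as reads summed over molecular identifiers of up to 20 reads each, an inference, and an estimated molecule is a count divided by 20, rounded up.

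Single values were compared with exact two-sided permutation tests (3 against 3, smallest p 0.1), adjusted over 22 measures by Benjamini-Hochberg. Thinning, without replacement, is the mean of 100 seeded draws to the lowest of the 6 libraries. Usage was tested with edgeR 4.0.16 (quasi-likelihood, 23 libraries in 8 groups, filterByExpr, chain total as library size, no TMM) and, as an alternative, DESeq2 1.42.0. The edgeR steps were tested on simulated counts. Intervals of a share (Wilson, 95%) were within 0.319 points for the largest clonotypes and cover counting error only, since reads are not independent molecules. A fold against a group at 0 uses a floor of 3 counts per library, which does not allow for missed molecules and sets no lower bound.

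Segments and pairs named were drawn from the 3 with the smallest p in each direction and the 5 most used in each group. Not all of these are printed, and some left out overlapped between groups. Clonotypes named are the 3 largest per library and those in the most libraries; those called under another setting are named as such. Members, lists and tests were chosen with earlier results of these data known. Libraries were not treated as paired by replicate number, because same-number correlations of V-J usage deviations ran from -0.0425 to 0.0174. Alternatives were other depths, indices, filters, tools and each library left out. Cases with clonotypes near large ones removed, and lists counted by clonotype, were chosen after seeing the data.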

Additional observations from a re-analysis of the deposited data

Results flagged for a closer look

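The mean TRB CDR3 length with each clonotype counted once differed from the control in opposite directions on the 2 days. At D4 the 3 combination libraries were at 13.98, 13.97 and 13.99 residues and the 3 control libraries at 13.77, 13.95 and 13.82. At D11 the combination libraries were at 14.02, 13.96 and 13.80 residues and the 2 control libraries at 14.16 and 14.12. Every combination library was above the controls at D4 and below them at D11. The difference was 0.132 residues at D4 and -0.215 at D11, which is 0.346 apart (exact two-sided permutation test within day, p = 0.01, adjusted p = 0.22 over 22 measures). The controls held 214, 416 and 696 TRB clonotypes at D4 and 298 and 749 at D11, so their means rest on few clonotypes. Its part in this result was not tested.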

How the results depend on the processing

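Of 22 measures, 17 kept their direction in all of their alternatives, and 11 of 246 values, in 5 measures, turned. No alternative could pass the threshold. TRB clonality turned to 0.00316 with counts under 20 removed and to 0.0189 with a Simpson-based index, and TRA clonality to -0.0401 in estimated molecules. Leaving out 1 library, the difference ran from -0.0612 to 0.0296 for TRB clonality, from -0.0268 to 0.0715 for TRA clonality, from -0.0492 to 0.184 residues for TRB CDR3 length by counts, from -0.00371 to 0.0645 for TRA length by clonotype, and from -2.33 to 0.667 for TRA clonotypes of 1% or more. With counts under 20 removed, the log2 difference in clonotypes detected was 2.39 for TRB and 2.49 for TRA. The causes were not tested.

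Calls of segment usage depended on the tool and on the weight of clones. Where edgeR called 0, the fit of the 6 libraries alone called 1 TRBV and 194 TRAV-TRAJ pairs. Pairs could pass its filter through 1 group alone. DESeq2 called 1 TRBV, 38 TRBV-TRBJ pairs, 15 TRAV, 7 TRAJ and 250 TRAV-TRAJ pairs. Counting each clonotype once called 3 TRBV, 1 TRBJ, 2 TRBV-TRBJ pairs and 1 TRAV. Estimated molecules called 1 TRAV (TRAV16) and 1 TRAJ (TRAJ38). Leaving out 1 library, calls ran from 0 to 1 for TRBV (TRBV26, without control replicate 1), 0 to 2 for TRBV-TRBJ pairs, 0 to 1 for TRAV and 0 to 1 for TRAJ (TRAJ2, without control replicate 2). With the replicate number as a block, edgeR called 0 in all 6 families, as without it.

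Control replicate 1 was the shallowest, with 34553 TRB counts, and its lowest listable share was 0.00868%. The exact permutation test of 3 against 3 libraries has 0.1 as its smallest p.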

Other observations

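The ratio of TRA to TRB counts was 1.72 ± 0.234 in the combination and 1.33 ± 0.117 in the control (n = 3 each), without overlap (exact permutation p = 0.1, unadjusted). It was 1.79, 1.91 and 1.46 in combination replicates 1 to 3 and 1.33, 1.45 and 1.22 in the control.

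Some large clonotypes differed by 1 residue. Beside the TRBV12-1 TRBJ2-7 chains already given, the clonotypes of rank 2 and rank 3 among the TRA chains of combination replicate 2 both use TRAV7D-2 with TRAJ37, have CDR3s of 14 residues and differ by G5R, counted from the first residue of the CDR3. They held 6.21% and 4.92% of that library's TRA counts. The first was at 0.227% in control replicate 1, and the other at 0.262 and 3.37% in control replicates 2 and 3.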
